A study of Mus musculus with 12 samples.

Results

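The TRAV13 copies numbered 1, 2 and 4 are 9 V gene segments of the mouse T cell receptor alpha (TRA) locus. Cells were assigned to them by the V segment named on the TRA contig with the most molecules (unique molecular identifiers, UMIs) in each cell. This gave 6424 TRAV13 cells among the 66136 cells with a TRA chain, which stood in a table of 100540 cells. The members were selected on deposited V names, and the TRAV13 family was picked with its shares already known, so its levels by library are given as a description. The study sorted CD8+ T cells from the spleens of wild-type C57BL/6 mice that received anti-CD137 (clone 3H3, 10 µg, 5 mice) or an Ig control (clone HRPN, 100 µg, 10 mice) for 14 days. All sorted cells were CD44hi, and they fell into effector cells (Teff, PD1-), precursor exhausted cells (Tpex, PD1+Slamf6+Tim3-) and exhausted cells (Tex, PD1+Slamf6-Tim3+). Each treatment and subset had 1 library, so no comparison has a replicate and none carries a p-value. The sources used here do not say how cells of the mice of 1 treatment were combined, so a clonotype of 1 mouse cannot be told apart from a difference between treatments. Every interval below is an exact Clopper-Pearson interval for a share or a Newcombe-type interval for a difference, at the 95% level. Those for a difference were built from the Clopper-Pearson limits of the shares. All cover counting error only, since cells of 1 clonotype are not independent. Gene expression values of the sort markers were not used here, and subsets are named by their sort gates.

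A T cell receptor alpha chain is made by joining 1 V segment to 1 J segment (TRAJ) in the thymus, and it pairs with a beta chain (TRB). The V segment encodes the first and second complementarity-determining regions (CDR1 and CDR2), loops that commonly lie over the peptide-presenting MHC molecule, while the third (CDR3) spans the V-J junction and commonly lies over the peptide. In C57BL/6 mice the central part of the V cluster was duplicated, so most TRAV families have a plain copy, a "D" copy and an "N" copy under the same number. Cells with the same rearranged alpha and beta chains descend from 1 cell in most cases and are called a clonotype, here the same nucleotide CDR3 of both chains.

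All 9 segments lie on the plus strand of chromosome 14 (GRCm38) and are annotated as V gene segments by GENCODE. The D copies lie farthest from the TRAJ segments and the plain copies nearest. TRAV13D-1 (chr14:52851290-52851866) ends 1303 kb before the first TRAJ segment, TRAV13D-2 (chr14:52942764-52943289) 1212 kb before it, and TRAV13D-4 (chr14:53072763-53073274) 1082 kb before it. TRAV13N-1 (chr14:53162399-53162910), TRAV13N-2 (chr14:53253792-53254317) and TRAV13N-4 (chr14:53362267-53364106) end 992, 901 and 791 kb before it. TRAV13-1 (chr14:53545014-53545525), TRAV13-2 (chr14:53634829-53635399) and TRAV13-4-DV7 (chr14:53757356-53757921), which can also be used in delta chains, end 609, 519.6 and 397 kb before it. CDR2 was the same in every copy seen, while CDR1 differed, so CDR1 is shown for each form, with capitals where a base differs from TRAV13-1. The bases are those most often seen in the deposited contigs.
TRAV13-1, TRAV13D-1 and TRAV13N-1 CDR1: acatctttgaacagt
TRAV13-2, TRAV13-4-DV7 and TRAV13D-4 CDR1: TcCAcAGCAaCcCgG
TRAV13N-2 CDR1: TcCAcAGCAaCcCAG
TRAV13N-4 CDR1: aTCtTtACAaacCAG
CDR2 of all copies seen: aatccttctgggaca
The start of CDR3 that each copy encodes also sorts the copies, with capitals where a base differs from TRAV13-1.
TRAV13-1 CDR3 start: tgtgctttggaac
TRAV13D-1, TRAV13N-1 and the copies numbered 4, CDR3 start: tgtgctAtggaac
Copies numbered 2, CDR3 start: tgtgctAtAgaTc
The copy number was only a partial guide to sequence. Over 258 bases of the V region, 9 pairs with the same number were 91.1 to 100% identical (median 96.1%) and 27 pairs with different numbers were 88.4 to 98.1% identical (median 90.7%). TRAV13-2 differed from TRAV13D-4 by 5 bases and from TRAV13N-2 by 10 bases. TRAV13D-1 and TRAV13N-1 differed by 1 base, so the split between these names rests on that base. TRAV13D-2 was listed at 0 cells, which allows a share of up to 0.0144% of cells in anti-CD137 Teff and 0.0168% in Ig control Teff. Its annotated 331-base transcript is identical to that of TRAV13N-2, so the cells named TRAV13N-2 may come from either gene and the 0 says nothing of TRAV13D-2 itself.

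TRAV13-1 was the most used copy, with 2255 cells. TRAV13N-2 followed with 1034 cells, TRAV13-2 with 895, TRAV13N-1 with 692, TRAV13-4-DV7 with 574, TRAV13N-4 with 446, TRAV13D-1 with 328 and TRAV13D-4 with 200. Of these V regions, 1002 of 1034 cells for TRAV13N-2 and 2253 of 2255 cells for TRAV13-1 were identical to the annotated gene. A further 774 cells carried a TRAV13 chain only as the TRA with fewer UMIs and were not counted as members. Cells with a TRA made up 74.4, 34.5 and 48.4% of the anti-CD137 Teff, Tpex and Tex cells and 68.9, 79.1 and 74.4% of the Ig control Teff, Tpex and Tex cells. The anti-CD137 Tpex library was the shallowest, with a median of 2190 RNA UMIs in TRAV13 cells, against 4789.5 in Ig control Tpex, and 24.7% of its TRAV13 calls rested on 1 TRA UMI, against 4.35%. Cell barcodes seen in at least 2 libraries numbered 5336, and 0 TRAV13 cells shared both the barcode and the TRA CDR3 with a cell of another library.

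By cells, TRAV13 chains took a similar share of both Teff libraries and a higher share of the anti-CD137 than of the Ig control PD1+ libraries. In Teff they were 2209 of 20856 cells (10.6%, 10.2 to 11.0%) with anti-CD137, against 1785 of 17851 cells (10.0%) with Ig control, a difference of 0.592 points (-0.0192 to 1.20). In Tpex they were 490 of 4556 cells (10.8%) with anti-CD137, against 782 of 10178 cells (7.68%) with Ig control, a difference of 3.07 points (2.04 to 4.14). In Tex they were 635 of 4789 cells (13.3%) with anti-CD137, against 523 of 7906 cells (6.62%) with Ig control, a difference of 6.64 points (5.54 to 7.77). The ratio of the shares was 1.06 in Teff, 1.40 in Tpex and 2.0 in Tex. Among Tpex cells whose TRA had at least 3 UMIs the difference by cells was 2.61 points.

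Counted by clonotypes, no difference in Tex was detectable at this depth. TRAV13 clonotypes numbered 119 of 1316 (9.04%) in anti-CD137 Tex, against 110 of 1124 (9.79%) in Ig control Tex, a difference of -0.744 points (-3.15 to 1.63). In Tpex there were 375 of 3552 (10.6%) with anti-CD137, against 491 of 5364 (9.15%) with Ig control, a difference of 1.40 points (0.127 to 2.71). The Tpex interval by clonotypes spanned 0 with at least 3 TRA UMIs, at 1.06 points (-0.630 to 2.85), and with all barcodes of the receptor table, at 0.788 points (-0.181 to 1.74). In Teff there were 2062 of 19625 (10.5%) with anti-CD137, against 1706 of 17058 (10.0%) with Ig control, a difference of 0.506 points (-0.121 to 1.13). The shares by clonotypes thus lay between 9.04 and 10.6% in all 6 libraries, while those by cells lay between 6.62 and 13.3%. Without the largest TRAV13 clonotype of each library, the share of cells was 9.22% in anti-CD137 Tex, against 4.92% in Ig control Tex, and 10.2% in anti-CD137 Tpex, against 7.28% in Ig control Tpex. Without the 10 largest clonotypes of any V segment in each library, the differences were 1.30 points in Tex and 1.34 points in Tpex.

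**Figure D1:**
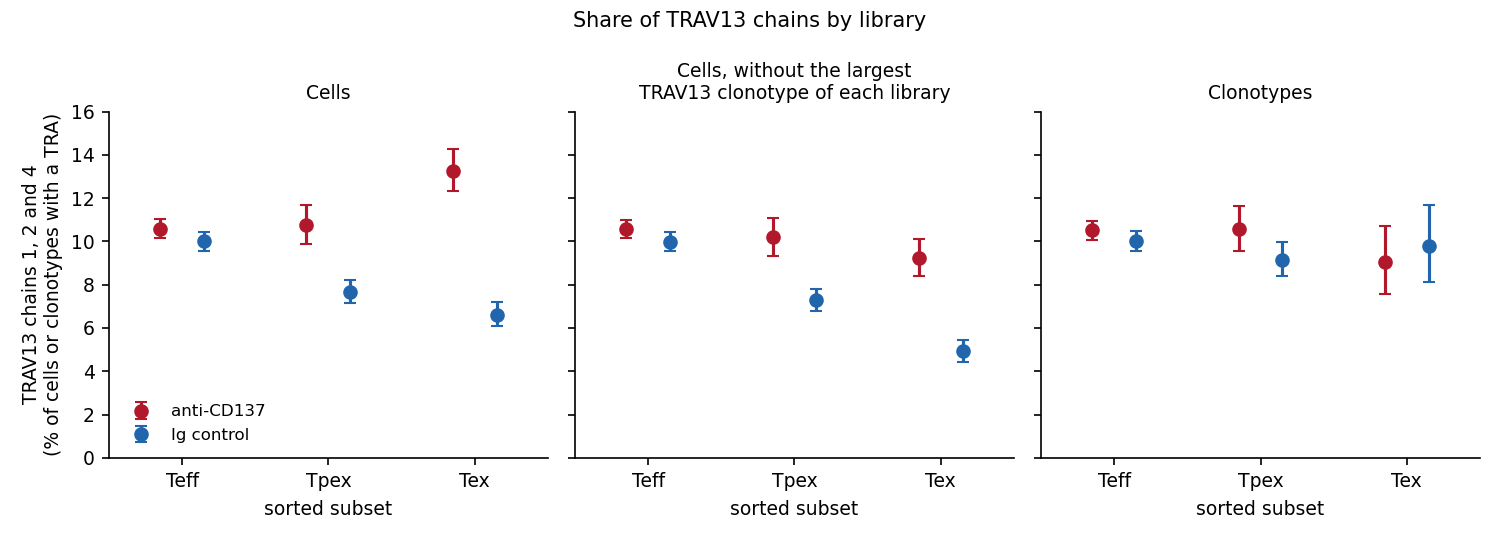
Share of TRAV13 chains among cells or clonotypes with a TRA (y axis, %), in the 3 sorted subsets (x axis), for anti-CD137 (red) and Ig control (blue). Points are single libraries and bars are 95% Clopper-Pearson intervals; in Tex the points are 13.3 and 6.62% by cells and 9.04 and 9.79% by clonotypes.

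Within the anti-CD137 libraries, the share by cells was 10.6% in Teff, 10.8% in Tpex and 13.3% in Tex, with 2.67 points (1.63 to 3.74) more in Tex than in Teff. Within the Ig control libraries it was 10.0, 7.68 and 6.62%, and Tex minus Teff was -3.38 points (-4.09 to -2.67). By clonotypes, Tex minus Teff was -1.46 points (-3.02 to 0.269) with anti-CD137 and -0.215 points (-1.95 to 1.73) with Ig control. Both intervals by clonotypes spanned 0. The order of the subsets by cells with anti-CD137 rested on 1 clonotype: without the largest TRAV13 clonotype of each library the shares were 10.6, 10.2 and 9.22% in Teff, Tpex and Tex with anti-CD137, and 9.98, 7.28 and 4.92% with Ig control, lowest in Tex in both treatments. Other V segments kept their largest clonotypes here, which lowers the TRAV13 share most in Tex. Without the 10 largest clonotypes of any V segment the shares were 10.7, 10.5 and 9.53% in Teff, Tpex and Tex with anti-CD137. With Ig control they were 10.0, 9.14 and 8.23%.

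The copies differed from each other by cells in the PD1+ libraries, where many TRAV segments of other families also differed between treatments. A ratio of shares of at least 1.5 in either direction was met by 1.16% of 86 TRAV segments in Teff, 47.5% of 80 in Tpex and 70.8% of 72 in Tex by cells, among segments with at least 20 cells over both libraries. By clonotypes it was met by 1.16% of 86 in Teff, 28.8% of 73 in Tpex and 37.0% of 46 in Tex. Against this, 0 of 8 TRAV13 copies passed in Teff. In Tpex, 3 of 8 copies were higher and 1 lower with anti-CD137, and in Tex 4 of 8 were higher and 2 lower by cells. By clonotypes 1 of 7 was higher and 1 lower in Tpex, and 1 of 5 was higher and 2 lower in Tex. The median ratio in Tex was 1.36 over the 8 copies and 1.26 over all 72 segments by cells, and 0.906 over the 5 copies and 0.983 over all 46 segments by clonotypes. By cells the copies past the ratio were 4 of 8 in Tpex and 6 of 8 in Tex, near the background of all segments, and by clonotypes in Tex they were 3 of 5, against 37.0% of all segments.

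In Tex, TRAV13-2 had 238 cells (4.97%) with anti-CD137, against 47 cells (0.594%) with Ig control. Without the largest TRAV13 clonotype of each library it had 25 cells (0.546%), against 47 cells (0.605%), so the difference was not present without its largest clonotype. The Ig control clonotype left out used TRAV13-1, so only anti-CD137 Tex lost TRAV13-2 cells. By clonotypes TRAV13-2 was lower, at 8 (0.608%) with anti-CD137, against 13 (1.16%) with Ig control. TRAV13-4-DV7 had 125 Tex cells (2.61%) with anti-CD137, against 8 cells (0.101%) with Ig control, in 10 and 5 clonotypes. TRAV13N-2 had 95 Tex cells (1.98%) with anti-CD137, against 58 (0.734%) with Ig control, and was also higher by clonotypes, at 35 (2.66%) against 18 (1.60%), a difference of 1.06 points (-0.159 to 2.27). TRAV13-1 had 108 Tex cells (2.26%) with anti-CD137, against 225 (2.85%) with Ig control. Without the largest TRAV13 clonotype of each library it was at 2.36% with anti-CD137, against 1.08% with Ig control. This left out TRAV13-1 cells from Ig control Tex only, where 84 stayed. Anti-CD137 Tex kept all 108, because its largest clonotype used TRAV13-2, so the turned order does not compare like with like. TRAV13D-4 had 20 Tex cells (0.418%) with anti-CD137, against 92 (1.16%) with Ig control, in 5 and 4 clonotypes. TRAV13N-4 was lower by both counts, with 10 cells and 8 clonotypes (0.608%) with anti-CD137, against 46 cells and 20 clonotypes (1.78%) with Ig control, a difference of -1.17 points by clonotypes (-2.19 to -0.267). TRAV13D-1 had 15 Tex cells (0.313%) with anti-CD137, against 23 (0.291%) with Ig control. TRAV13N-1 had 24 cells in each, which was 0.501% with anti-CD137, against 0.304% with Ig control, in 12 and 11 clonotypes.

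**Figure D2:**
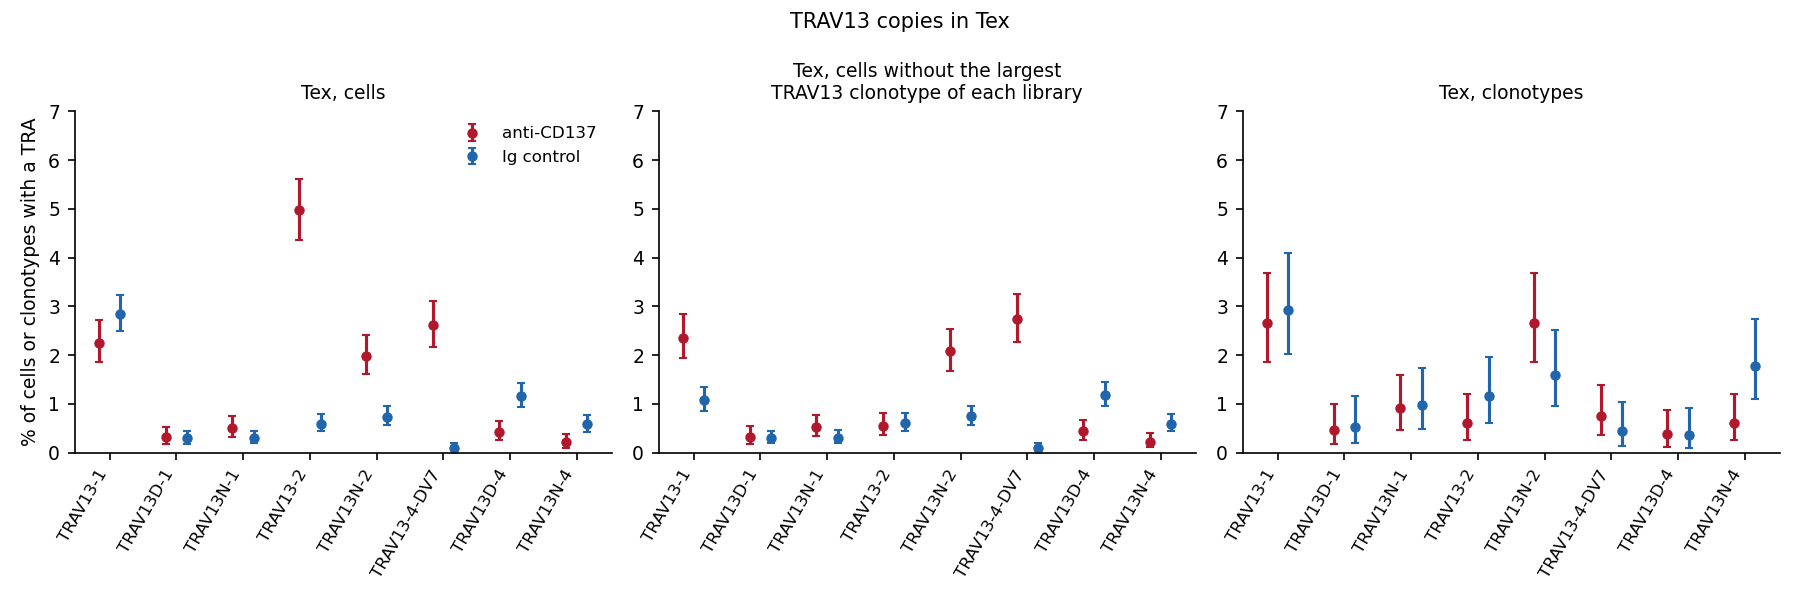
Share of each TRAV13 copy among Tex cells or clonotypes with a TRA (y axis, %) for anti-CD137 (red) and Ig control (blue), with 95% Clopper-Pearson intervals. TRAV13-2 stands at 4.97 and 0.594% by cells and at 0.546 and 0.605% without the largest clonotypes.

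In Tpex, TRAV13-1, the most used copy, was past the ratio by cells but not by clonotypes. It had 194 cells (4.26%) with anti-CD137, against 234 (2.30%) with Ig control, and 139 clonotypes (3.91%) against 160 (2.98%), a difference of 0.930 points by clonotypes (0.145 to 1.75). Without the largest TRAV13 clonotype of each library it had 3.64% of cells with anti-CD137, against 2.31% with Ig control. Only anti-CD137 Tpex lost TRAV13-1 cells by this, with 165 left, while Ig control Tpex kept all 234. TRAV13-4-DV7 had 55 Tpex cells (1.21%) with anti-CD137, against 56 (0.550%) with Ig control. TRAV13D-1 had 28 Tpex cells (0.615%) with anti-CD137, against 36 (0.354%) with Ig control. TRAV13N-1 was past the ratio by clonotypes, with 49 clonotypes (1.38%) with anti-CD137, against 49 (0.913%) with Ig control. TRAV13-2 was on the other side, with 29 clonotypes (0.816%) with anti-CD137, against 68 (1.27%) with Ig control, and a ratio of 0.644. TRAV13D-4 was lower by both counts, with 2 cells in 2 clonotypes with anti-CD137, against 20 cells in 14 clonotypes with Ig control, a difference of -0.205 points by clonotypes (-0.388 to -0.0161), but it had fewer than 20 clonotypes over both libraries. In Teff the ratios of the 8 copies by cells ran between 0.905 for TRAV13-2 and 1.32 for TRAV13D-1, and the order of the copies by share was led by TRAV13-1 (4.02% with anti-CD137 and 3.67% with Ig control) and TRAV13N-2 (1.76 and 1.69%) in both libraries.

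In Tex, a few large clonotypes held most of the TRAV13 cells. Clonotypes of 1 cell made up 94.9% of paired TRAV13 cells in anti-CD137 Teff and 96.4% in Ig control Teff, 67.4% in anti-CD137 Tpex and 50.6% in Ig control Tpex, and 14.6% in anti-CD137 Tex and 12.4% in Ig control Tex. The 3 largest held 52.8% of paired TRAV13 cells in anti-CD137 Tex and 50.1% in Ig control Tex. Clonotypes of at least 10 cells numbered 9 in anti-CD137 Tex and 7 in Ig control Tex. Clonotypes were set by the TRA with the most UMIs, so cells of 1 clone with more than 1 TRA can be split. In anti-CD137 Tex, 1 beta chain was in 23 cells, 20 of them with more than 1 TRA. The top TRA was TRAV13-1 with TRAJ15 in 11 and with TRAJ42 in 12, counted as different clonotypes. How many clonotypes were split in this way was not counted. In anti-CD137 Tex, TRAV13 clonotypes had a mean of 5.18 cells, against 3.43 for clonotypes with other TRA chains, although only 24.4% of them (17.0 to 33.1%) had more than 1 cell, against 37.6%. In Ig control Tex the mean was 4.68 cells for TRAV13 clonotypes, against 7.16 for the others, and 41.8% had more than 1 cell, against 44.0%.

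**Figure D3:**
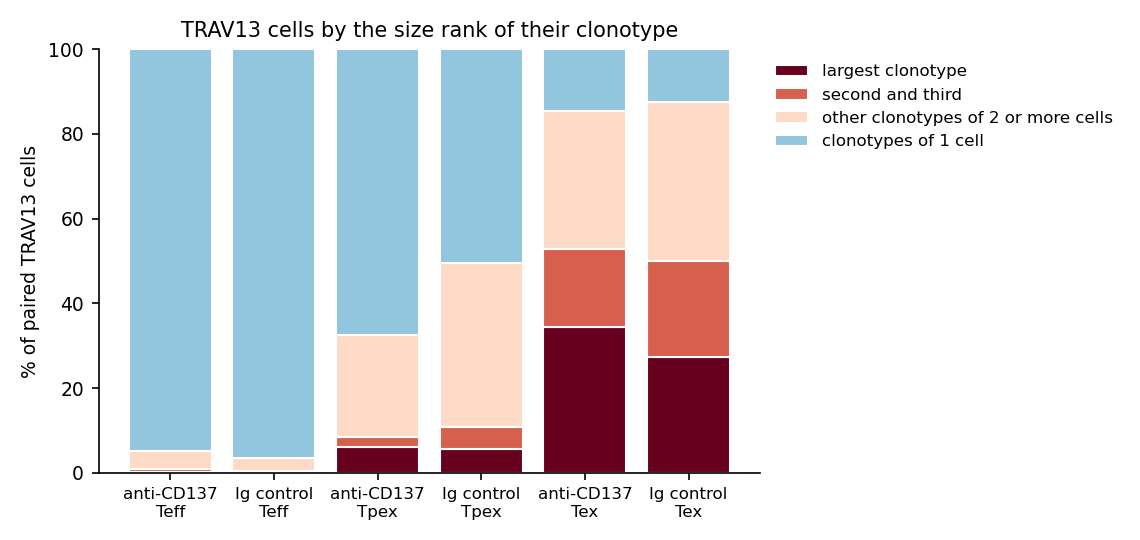
Paired TRAV13 cells of each library (x axis) split by the size rank of their clonotype within the library (y axis, % of cells; bars stack to 100). The largest clonotype holds 34.5% of the cells in anti-CD137 Tex and 27.4% in Ig control Tex, and clonotypes of 1 cell hold over 90% of both Teff libraries.

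The 3 largest TRAV13 clonotypes of each Tex library are shown because they set the cell counts above. The CDR3 of the alpha chain and then of the beta chain are given, with capitals for bases that match neither the annotated V nor J segment (for TRB these include the D segment).
anti-CD137 Tex, 213 cells, TRAV13-2 TRAJ6: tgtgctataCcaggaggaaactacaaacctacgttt
its TRBV1 TRBJ1-3 chain: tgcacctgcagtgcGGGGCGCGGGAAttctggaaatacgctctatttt
anti-CD137 Tex, 63 cells, TRAV13-4-DV7 TRAJ33: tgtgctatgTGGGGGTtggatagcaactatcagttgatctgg
its TRBV14 TRBJ2-7 chain: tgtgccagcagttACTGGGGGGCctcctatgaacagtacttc
anti-CD137 Tex, 50 cells, TRAV13-4-DV7 TRAJ58: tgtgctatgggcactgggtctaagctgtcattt
its TRBV5 TRBJ2-7 chain: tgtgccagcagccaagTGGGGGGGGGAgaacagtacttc
Ig control Tex, 141 cells, TRAV13-1 TRAJ15: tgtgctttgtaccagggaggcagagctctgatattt
its TRBV19 TRBJ1-3 chain: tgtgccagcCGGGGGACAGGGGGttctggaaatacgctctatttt
Ig control Tex, 89 cells, TRAV13D-4 TRAJ22: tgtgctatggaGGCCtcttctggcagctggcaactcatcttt
its TRBV14 TRBJ2-1 chain: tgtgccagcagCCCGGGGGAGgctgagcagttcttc
Ig control Tex, 28 cells, TRAV13N-2 TRAJ23: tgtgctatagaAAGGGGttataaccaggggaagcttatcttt
its TRBV12-2+TRBV13-2 chain (a joint name in the deposited table) with TRBJ2-1: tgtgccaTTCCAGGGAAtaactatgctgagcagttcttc
These 6 clonotypes used 5 different copies, and the pair from TRAV13-4-DV7 used different TRAJ and TRBV segments. None of the 3 anti-CD137 clonotypes had a cell in an Ig control library, and none of the 3 Ig control clonotypes had a cell in an anti-CD137 library. The share of all clonotypes found in both treatments was not counted, so this cannot be read as a trait of these 6. The 213-cell clonotype had 1 cell in anti-CD137 Tpex, the 63-cell clonotype 4 and the 50-cell clonotype 1. The 141-cell, 89-cell and 28-cell clonotypes had 8, 1 and 7 cells in Ig control Tpex. None of the 6 had a cell in a Teff library. Among all Tex clonotypes, 1.68% of TRAV13 and 5.85% of others had a Teff cell with anti-CD137, and 2.73 and 2.66% with Ig control.

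The largest TRAV13 clonotypes of the Tpex libraries were smaller. In anti-CD137 Tpex it had 29 cells, joined TRAV13-1 to TRAJ15, paired with TRBV12-2, and was not seen in another library. The next had 6 cells (TRAV13-4-DV7, TRAJ39, TRBV13-1) and 5 cells (TRAV13N-2, TRAJ18, TRBV16). In Ig control Tpex the largest had 44 cells (TRAV13N-1, TRAJ37, TRBV10), 21 cells (TRAV13N-2, TRAJ17, TRBV12-2) and 19 cells (TRAV13N-1, TRAJ12, TRBV13-3), with 5, 7 and 8 further cells in Ig control Tex. No TRAV13 clonotype passed 6 cells in a Teff library, where both clonotypes of 6 cells (TRAV13D-4 with TRAJ28, TRAV13N-1 with TRAJ22) were in anti-CD137 Teff with 83.3% of their cells in cluster 6. In each treatment, 2 TRAV13 clonotypes were found in all 3 subsets, with 13 cells in all with anti-CD137 and 14 with Ig control. Clonotypes with other TRA chains were not counted in this way.

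Few TRAV13 cells of Tex had the same clonotype as a Teff cell. In anti-CD137 Tex, 6 of 617 paired TRAV13 cells (0.972%, 0.358 to 2.10%) belonged to a clonotype with a Teff cell, against 520 of 4100 cells with other TRA chains (12.7%). By clonotypes these were 2 of 119 (1.68%), against 70 of 1197 (5.85%). In Ig control Tex they were 6 of 515 cells (1.17%), against 930 of 7263 (12.8%), but here 1 clonotype of 762 cells held most of the others, and without the largest clonotype on each side the shares were 1.60% and 2.58%. By clonotypes the Ig control Tex shares were 2.73% for TRAV13, against 2.66% for the others. Without the largest clonotypes the anti-CD137 Tex shares were 1.49% for TRAV13, against 13.1% for the others. Neither of these largest clonotypes had a Teff cell, so leaving them out changed only the denominators. It does not show whether a few clonotypes held the shared cells. Matched on the beta chain alone, the shares of Tex cells found in Teff were 2.43% for TRAV13, against 16.6% for the others, with anti-CD137, and 3.88%, against 13.5%, with Ig control. Between Tex and Tpex, 67.1% of anti-CD137 Tex TRAV13 cells belonged to a clonotype with a Tpex cell, against 40.9% of the others, and without the largest clonotypes these were 49.8% and 39.0%. By clonotypes the order was the other way, with 15 of 119 (12.6%), against 224 of 1197 (18.7%). In Ig control Tex, 80.4% of TRAV13 cells were found in Tpex, against 78.7% of the others, and 45.5% of TRAV13 clonotypes, against 43.7%. Without the largest clonotypes the order by cells turned round, with 73.0% of TRAV13 cells, against 76.2% of the others.

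In the deposited clustering of the cells by gene expression, TRAV13 cells of both Teff libraries lay more often in cluster 2 than cells with other TRA chains. In anti-CD137 Teff, 1175 of 2209 TRAV13 cells (53.2%, 51.1 to 55.3%) were in cluster 2, against 47.1% of the others, a difference of 6.04 points (3.82 to 8.26). In Ig control Teff, 922 of 1785 TRAV13 cells (51.7%, 49.3 to 54.0%) were in it, against 44.4%, a difference of 7.23 points (4.76 to 9.70). Counting each clonotype once per cluster gave 6.05 points with anti-CD137 and 7.03 points with Ig control, and within bins of RNA UMIs per cell the differences were 5.35 and 5.17 points. Cluster 0 held 36.0% of TRAV13 cells in anti-CD137 Teff, against 40.9% of the others, and 39.7% in Ig control Teff, against 45.1%. Per copy, cluster 2 shares in anti-CD137 Teff were 56.2% for TRAV13-2, 55.2% for TRAV13-4-DV7, 54.5% for TRAV13-1, 54.2% for TRAV13N-4 and 54.0% for TRAV13N-2. In Ig control Teff they were 60.3, 54.3, 52.1, 54.4 and 49.5%. TRAV13N-1 was nearer the cells with other TRA chains, at 47.8% (41.3 to 54.5%) with anti-CD137 and 47.7% (40.9 to 54.6%) with Ig control. TRAV13-2 ranked the fourth of 82 TRAV segments with anti-CD137 and the first of 82 with Ig control. TRAV13D-1 differed between the libraries, at 48.9% with anti-CD137 and 34.8% with Ig control, and TRAV13D-4 was at 29.4% of 34 cells and 53.1% of 32 cells. In each library 7 of 8 copies were above the share of cells with other TRA chains, which 41 of 82 segments were with anti-CD137 and 40 of 82 with Ig control. Median RNA UMIs were 4254 in TRAV13 cells and 4212 in the others with anti-CD137, and 4776 and 4587 with Ig control. The sources used here do not say whether receptor genes entered the clustering, and their part in the cluster difference was not tested.

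**Figure D4:**
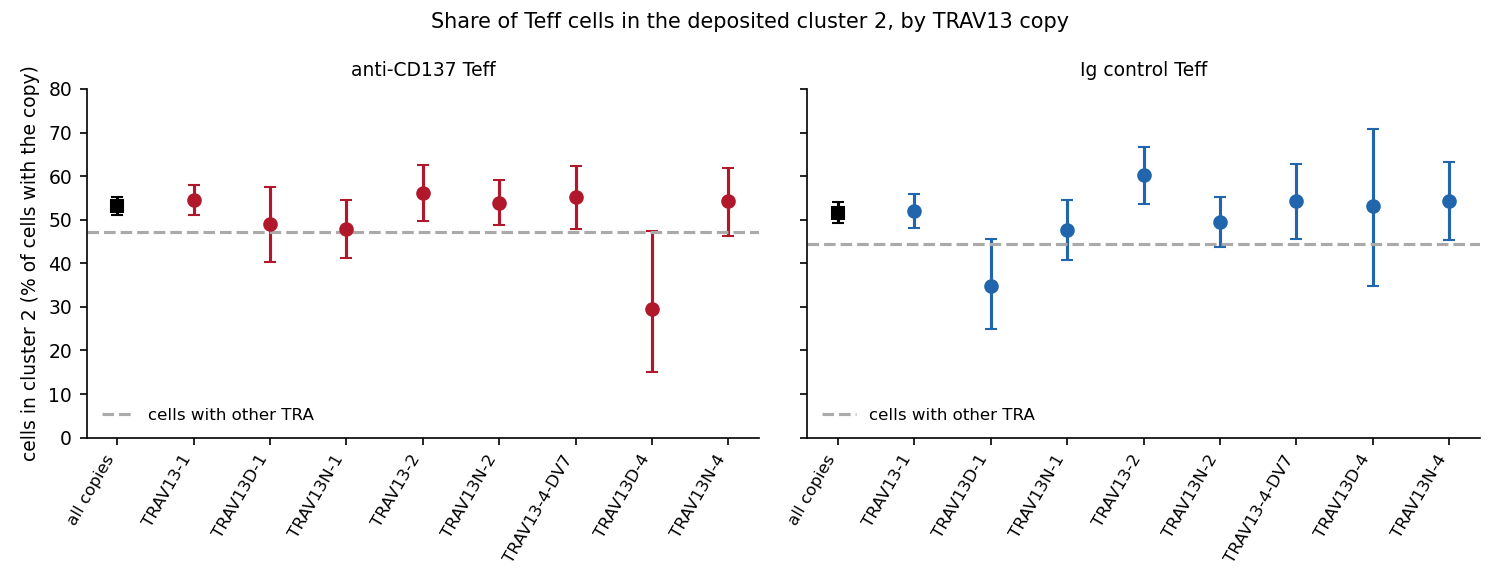
Share of Teff cells in the deposited cluster 2 (y axis, % of cells with the copy) for all TRAV13 copies together (black) and each copy, with 95% Clopper-Pearson intervals, in anti-CD137 (left) and Ig control (right). The dashed line is the share among cells with other TRA chains, 47.1 and 44.4%.

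Among Tpex cells, cluster 1 held most cells with and without a TRAV13 chain. Cluster 1 held 82.0% of TRAV13 cells in anti-CD137 Tpex, against 82.7% of the others, and 85.4% in Ig control Tpex, against 87.9% (difference -2.47 points, -5.22 to 0.0271, and -3.06 points, -5.93 to -0.462, without the largest TRAV13 clonotype). Cluster 0, a cluster mostly of Teff cells, held 14 of 490 TRAV13 cells (2.86%) in anti-CD137 Tpex, against 1.43% of the others, a difference of 1.43 points (0.0793 to 3.35). In Ig control Tpex it held 40 of 782 TRAV13 cells (5.12%), against 2.91% of the others, a difference of 2.21 points (0.729 to 4.03). Cluster 6 held 8 TRAV13 cells (1.02%) in Ig control Tpex, against 0.383% of the others, a difference of 0.640 points (0.0412 to 1.63), and 2 TRAV13 cells (0.408%) in anti-CD137 Tpex, against 0.172%. In Ig control Teff it went the other way, at 1.34% against 2.16%, a difference of -0.815 points (-1.35 to -0.130). In anti-CD137 Teff it was 4.21% against 4.30%. Clusters 0 to 8 were compared in every library with no allowance for their number, and cluster 6 was not counted by clonotypes. In Tex, most cells lay in cluster 4 with anti-CD137 and in cluster 3 with Ig control, whether or not they had a TRAV13 chain. Cluster 4 held 80.3% of TRAV13 cells in anti-CD137 Tex, against 76.1% of the others, a difference of 4.17 points (0.620 to 7.47). The 213-cell TRAV13-2 clonotype had 90.6% of its cells in cluster 4, and without it the difference was -1.02 points. The 63-cell and 50-cell clonotypes had 77.8 and 66.0% of their cells there. In Ig control Tex, cluster 3 held 89.7% of TRAV13 cells, against 89.8% of the others, and 97.2% of the cells of the 141-cell clonotype.

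The plain copies, nearest the TRAJ segments, joined higher TRAJ numbers than the D and N copies, whose means did not follow distance among themselves. TRAJ segments with high numbers lie nearest the V cluster, and the first rearrangements of the locus are known to use V and J segments that lie near each other. The mean TRAJ number over the clonotypes of all libraries was 45.6 for TRAV13-4-DV7, 36.7 for TRAV13-2 and 34.1 for TRAV13-1, the copies nearest the TRAJ segments. For the N copies it was 26.3 (TRAV13N-4), 24.2 (TRAV13N-2) and 24.5 (TRAV13N-1). For TRAV13D-4 it was 21.3 and for TRAV13D-1, the farthest copy with cells, 29.1, which is above all the N copies although they lie nearer. The distance for TRAV13N-2 is not certain, since cells of that name may come from TRAV13D-2. Its mean also includes 27 clonotypes with the Trav13-5 sequence. Among 86 TRAV segments these means ranked the fourth for TRAV13-4-DV7 and the 84th for TRAV13D-4. TRAJ numbers of at least 40 made up 75.0% of TRAV13-4-DV7 clonotypes and 5.95% of TRAV13D-4 clonotypes. The Teff libraries gave nearly the same means, with TRAV13-4-DV7 at 45.3 with anti-CD137 and 46.2 with Ig control, TRAV13-1 at 34.0 and 34.1, and TRAV13N-2 at 24.1 and 25.2. TRAV13D-4 was at 24.4 and 22.0 in 29 and 30 clonotypes. Copies with the same CDR1 thus had different TRAJ use, with TRAV13-4-DV7 and TRAV13D-4 apart by more than 20 TRAJ numbers in both Teff libraries.

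**Figure D5:**
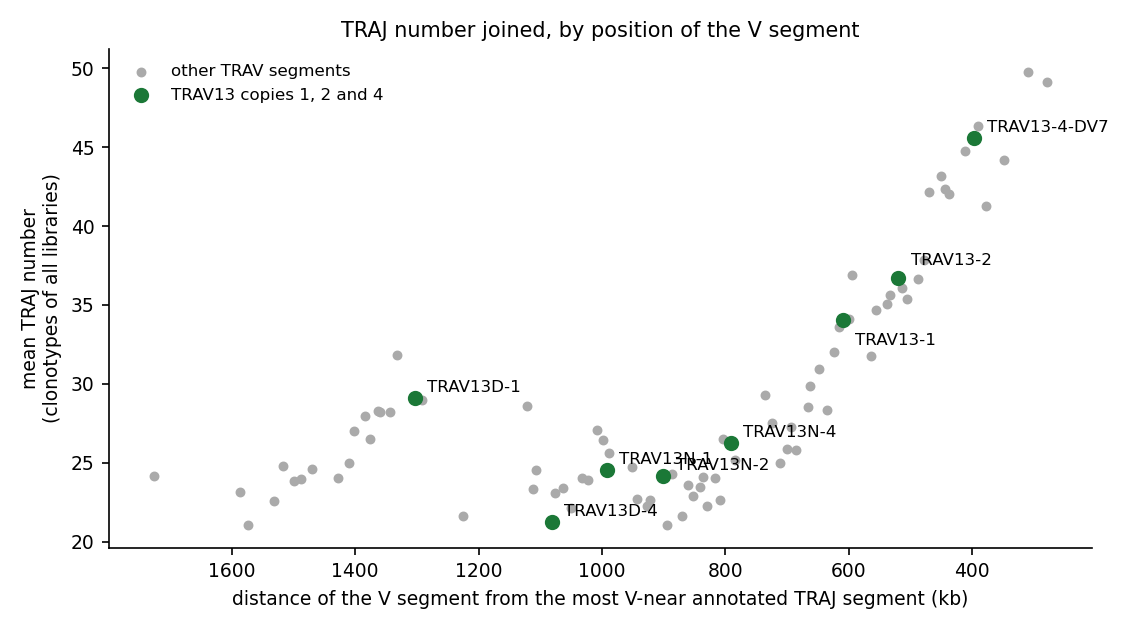
Mean TRAJ number over clonotypes of all libraries (y axis) against the distance of the V segment from the first TRAJ segment (x axis, kb, falling to the right), for TRAV13 copies (green) and other TRAV segments with at least 20 clonotypes (grey). TRAV13-4-DV7, 397 kb away, has a mean of 45.6 and TRAV13D-4, 1082 kb away, a mean of 21.3.

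Over all copies and libraries (4863 TRAV13 clonotypes and 43176 others, summed over libraries), 9 of 41 TRAJ segments (22.0%) differed in share by at least 1.5-fold between TRAV13 clonotypes and the others. TRAJ39 was at 3.45% of TRAV13 clonotypes, against 1.78% of the others. TRAJ52 was at 2.55%, against 1.51%, TRAJ49 at 6.33%, against 4.01%, and TRAJ27 at 3.56%, against 2.33%. On the lower side, TRAJ7 was at 1.03%, against 2.39%, a ratio of 0.430, and TRAJ12 at 2.10%, against 3.64%. TRAJ18, TRAJ23 and TRAJ24 had ratios of 0.648, 0.664 and 0.615. All 9 lay on the same side in both Teff libraries. These hold 2062 (anti-CD137) and 1706 (Ig control) of the 4863 TRAV13 clonotypes in the sum, so this is no separate support. In them TRAJ7 was at 0.873% of TRAV13 clonotypes, against 2.40%, with anti-CD137 and at 0.821%, against 2.40%, with Ig control. By copy number, TRAJ22 led for number 1 (10.0% of 2593 clonotypes, against 7.85% of others) and TRAJ30 for number 2 (6.44% of 1412, against 5.13%). For number 4, TRAJ49 led (9.56% of 858, against 4.01%), followed by TRAJ52 (7.81%, against 1.51%).

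Partner beta chains differed less. None of 21 TRBV segments with at least 20 TRAV13 clonotypes was past the 1.5-fold ratio, a share called of 0.00%. The ratios ran between 0.678 for TRBV29 and 1.44 for TRBV12-2. TRBV12-2 paired with 9.87% of TRAV13 clonotypes (9.05 to 10.7%), against 6.85% of the others, and in Teff with 10.3%, against 6.96%, with anti-CD137 and 10.3%, against 7.24%, with Ig control. TRBV16 paired with 9.71%, against 7.24%, and TRBV29 with 4.17%, against 6.16%. TRBV12-2 was most frequent with the copies numbered 1, at 11.1% of their clonotypes, and was at 9.35% for number 2 and 6.99% for number 4, against 6.85% of clonotypes with other TRA chains. TRBV16 stood at 9.49, 10.3 and 9.32% for numbers 1, 2 and 4. TRBV13-3 was among the 3 most used for number 2, at 8.43%, against 6.09%.

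CDR3 loops of TRAV13 chains had a mean of 13.3 codons, against 13.6 for other TRA chains. Bases matching neither V nor J had a mean of 2.73, against 2.78, and 16.2% of TRAV13 clonotypes (15.2 to 17.3%) had none, against 15.4%. Among copies, the share with none ran between 11.9% for TRAV13D-4 and 21.3% for TRAV13-4-DV7. TRAV13 alpha chains with the same V segment and nucleotide CDR3 in both treatments numbered 220 of 4110 (5.35%, 4.68 to 6.09%), against 4.86% of 36469 other TRA chains. TRAV13-1 had 99 of 1423 (6.96%, 5.69 to 8.41%) and TRAV13N-4 had 10 of 341 (2.93%, 1.42 to 5.33%). Chains seen in both treatments had 0 unmatched bases in 30.9% of cases, against 11.2% of the TRAV13 chains seen in 1 treatment, and a mean of 1.53 unmatched bases, against 3.03.

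The 5 shared TRAV13 chains found in most libraries and cells are shown next, with capitals for unmatched bases; 4 of them had none.
TRAV13-1 TRAJ15, 163 cells: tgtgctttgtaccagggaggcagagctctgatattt
TRAV13-1 TRAJ45, 14 cells: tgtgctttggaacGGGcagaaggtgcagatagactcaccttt
TRAV13-1 TRAJ30, 13 cells: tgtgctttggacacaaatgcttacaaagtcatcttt
TRAV13-2 TRAJ27, 13 cells: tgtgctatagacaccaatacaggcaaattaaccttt
TRAV13-1 TRAJ50, 8 cells: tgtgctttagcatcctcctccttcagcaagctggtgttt
Each was in 4 libraries. The TRAJ45, TRAJ30 and TRAJ27 chains each paired with at least 9 different beta chains. The TRAJ15 chain, that of the 141-cell clonotype, had 4 beta chains, and TRBV19 was in 160 of its 162 paired cells. It had 13 cells in anti-CD137 Tex and 1 in anti-CD137 Tpex, against 141 in Ig control Tex and 8 in Ig control Tpex. In anti-CD137 Tex, 11 of the cells had a TRBV19 beta chain other than that of the Ig control cells, so different clonotypes of the 2 treatments had the same alpha chain and the same TRBV.
anti-CD137 Tex, TRBV19 TRBJ2-4: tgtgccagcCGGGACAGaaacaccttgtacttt
Ig control Tex and Tpex, TRBV19 TRBJ1-3: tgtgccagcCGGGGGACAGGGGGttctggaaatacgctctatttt
This anti-CD137 beta chain was in 23 cells, and 22 of them carried the TRAJ15 chain among their TRA contigs. More than 1 TRA chain was found in 20 of the 23 cells, and in 12 of the 23 the chain with the most UMIs was TRAV13-1 joined to TRAJ42. In Teff, TRAV13-1 joined to TRAJ15 was found in 7 clonotypes with anti-CD137, of which 1 had TRBV19, and in 12 with Ig control, of which 2 had TRBV19.

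A small group of cells named TRAV13N-2 did not carry that segment. The V region of 30 of 1034 such cells (2.90%) was identical to Trav13-5 (chr14:53795357-53795963, listed in the annotation as B230359F08Rik) and differed from TRAV13N-2 at 99 of 258 bases. They formed 27 clonotypes with 16 different TRAJ segments, with 14 cells from anti-CD137 and 16 from Ig control mice, and 23 were Teff cells. Their CDR1 is shown with capitals where it differs from TRAV13N-2.
cells named TRAV13N-2 with the Trav13-5 sequence, CDR1: ATcTcTAcaaAccag
Without them the difference in TRAV13 share by cells was 6.63 points in Tex, 3.07 points in Tpex and 0.606 points in Teff.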

How the data were processed

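Single-cell 5′ gene expression and receptor libraries were made from 6 sorted populations (12 samples). Cell Ranger 3.0.2, Seurat 4.0.0 and the mm10 build are named in the submitters' processing notes. The authors deposited a table of receptor contigs, with counts of UMIs and reads per contig and the bases of each region, and a table of cells, with counts of UMIs and genes, percent of ribosomal reads and cluster numbers; both hold values that the authors had already filtered. Every contig in the table was productive. For each cell the TRA and the TRB with the most UMIs were taken (ties by reads), and cells with both were grouped into clonotypes by both nucleotide CDR3s within a library. A clonotype has the V segment of most of its cells. Positions and annotated segments came from GENCODE M21 (GRCm38), and the symbol Trav13-5 from RefSeq GRCm38.p6. CDR3 bases were matched from the left to the V segment and from the right to the J segment. A segment was counted as different at a ratio of shares of at least 1.5 with at least 20 cells or clonotypes. With 1 library per group no test was run. Intervals at the 95% level are Clopper-Pearson (scipy 1.17.1) for shares and, for differences, Newcombe-type intervals built from Clopper-Pearson limits. A limit at 0 is 3 counts. PCR copies were collapsed by UMI, and intervals cover counting error only. The ratio calls were tested on simulated Teff libraries and the intervals on simulated counts, both with independent cells. This does not cover expanded clonotypes such as those of the PD1+ libraries. Partners named are the 3 most used TRAJ and TRBV per copy number plus those past the ratio; clonotypes named are the 3 largest per library and those in all 3 subsets; shared chains are the 5 in most libraries, then cells. Members and lists were chosen with earlier results of these data known. Doublets were not called; cells with more than 1 TRA or TRB were kept, with alternatives limited to 1 of each. Depth was 490 to 2209 TRAV13 cells per library.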

Additional observations from a re-analysis of the deposited data

Results flagged for a closer look

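The difference between treatments in the TRAV13 share by clonotypes had opposite signs in the PD1+ subsets: -0.744 points in Tex and 1.40 points in Tpex (anti-CD137 minus Ig control). The difference between the subsets was not tested, and the Tex interval spans 0. The TRAV13-1 share by cells also had opposite signs, at -0.591 points in Tex (108 of 4789 cells with anti-CD137, against 225 of 7906 with Ig control) and 1.96 points in Tpex (194 of 4556 cells, against 234 of 10178). This difference was not tested either. Without the largest TRAV13 clonotype of each library the Tex value was 1.28 points. Only Ig control Tex lost TRAV13-1 cells by this, with 84 left, while anti-CD137 Tex kept all 108, so the 2 sides were not treated alike.

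Receptor barcodes that are not in the table of cells also carried TRAV13 chains. In the anti-CD137 Tpex library they were 770 of 7785 such barcodes (9.89%, 9.24 to 10.6%), against 100 of 1309 (7.64%, 6.26 to 9.21%) in Ig control Tpex. In Tex they were 190 of 1522 (12.5%) with anti-CD137, against 38 of 241 (15.8%) with Ig control, and in Teff 81 of 710 (11.4%) with anti-CD137, against 59 of 501 (11.8%) with Ig control.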

How the results depend on the processing

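Each population had 1 library, so no replicate could be left out. No paired analysis was possible because each treatment and subset had a single library and no replicate number to pair. The limit for a recomputed value was the interval of the reported share or 1.5-fold for a count of TRAV segments. For a mean TRAJ it was 1 TRAJ number, and for the count of partner TRBV an equal count. Of 118 values recomputed under an alternative, 96 stayed within their limit. All 36 for the share by clonotypes did, although the Tpex interval spanned 0 with all barcodes of the receptor table (0.788 points) and with at least 3 TRA UMIs (1.06 points), against 1.40 points. Some of the 36 leave out the largest clonotypes, which could hardly move a share that counts each clonotype once. The share by cells also stayed within its interval under any TRA contig, highest-read TRA, 1 TRA, 1 TRA and 1 TRB, at least 3 TRA UMIs and all barcodes of the receptor table. Anti-CD137 minus Ig control by cells moved in Tex to 4.30 points without the largest TRAV13 clonotypes, 3.46 points without the 3 largest (an alternative chosen after seeing the data, as was leaving out the Trav13-5 chains) and 1.30 points without the 10 largest clonotypes of any V segment, which gave 1.34 points in Tpex. With a fold of 2, the count of TRAV segments past it was 0 in Teff by cells and by clonotypes, against 1 each, 18 in Tpex by cells, against 38, 7 in Tpex by clonotypes, against 21, and 11 in Tex by clonotypes, against 17. With at least 50 clonotypes it was 3 in Tex, against 17, since fewer segments were counted. The cluster 4 difference in anti-CD137 Tex was -1.02 points without the largest clonotype, against 4.17. The mean TRAJ difference (TRAV13 minus other TRA) in anti-CD137 Tex was -6.58 per cell and 1.36 per cell without the largest clonotype, against -1.04 per clonotype. In Ig control Tex it was -2.43 per cell, against 1.0 per clonotype, and in Ig control Tpex 0.102 per cell without the largest clonotype, against 1.40. TRAV13 Tex cells found in Teff were 2.43% with anti-CD137 and 3.88% with Ig control by the beta chain alone (chosen after seeing the data), against 0.972 and 1.17%. Those found in Tpex with anti-CD137 were 76.5% by the beta chain alone and 49.8% without the largest clonotype, against 67.1%, and with Ig control 73.0% without it, against 80.4%. Partner TRBV past 1.5-fold numbered 5 per cell and 6 per cell without the largest clonotype, against 0 per clonotype.

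With 119 and 110 TRAV13 clonotypes in the Tex libraries, the interval of the difference in the TRAV13 share by clonotypes ran from -3.15 to 1.63 points in Tex, so smaller differences in that share were not detectable at this depth. V names of near-identical copies rest on few bases.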

Other observations

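The other TRAV13 segments seen, the D and N copies numbered 3, are outside the 9 members. They had 38 Tex cells (0.793%) in 7 clonotypes with anti-CD137, against 0 of 7906 cells with Ig control, which allows a share of up to 0.0379%. In Tpex they had 18 cells with anti-CD137, against 22 with Ig control, and in Teff 58, against 43. Of the 38 Tex cells, 33 were TRAV13N-3 in 2 clonotypes and 5 were TRAV13D-3 in 5 clonotypes.

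TRAV13-1 joined to TRAJ15 was found in 11 clonotypes and 39 cells of anti-CD137 Tpex, against 4 clonotypes and 14 cells of Ig control Tpex; 29 of the 39 cells were the largest TRAV13 clonotype of that library. Among the 11 clonotypes 0 paired with TRBV19, against 2 of 4 with Ig control. TRBV19 was the partner of 7.56% of TRAV13 clonotypes in anti-CD137 Tex and 16.4% in Ig control Tex, against 9.36 and 11.8% of clonotypes with other TRA chains.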
